A study of Mus musculus with 8 samples.

Results

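The colon and the cecum of germ-free mice, which carry no microbes, were compared in single epithelial cells. The cells were chosen by their loaded sample, Colon GF against Cecum GF with 4 samples each, and by a minimum of 500 transcripts per cell. This left 4215 Colon GF cells and 1636 Cecum GF cells, 5851 of the 15916 cells kept in the whole series of 24609 barcodes. The study's title concerns how nicotinic acid made by the microbiome bears on regional identity and injury in the colon. It also loaded control and antibiotic-treated mice (Ctrl, Abx_4D, Abx_14D). Colon GF and Cecum GF share the germ-free state and the cell preparation. Epithelium was released with EDTA, dissociated with Dispase II and DNase I, pooled by condition and sorted as EPCAM+ CD45- cells, with CD44+ and CD44- cells taken 1:1. The labels name no strain, age, sex or separate animals. A p-value here thus measures the spread between the loaded samples only, which may be technical among those alike in sex-linked transcripts. All Colon Ctrl samples together kept 50 cells, so the same contrast was not made in untreated mice.

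The large intestine begins with the cecum, a fermentation pouch, and continues with the colon, which recovers water and salt and stores stool. Position along the gut is written in the epithelium by homeodomain factors, among them the Hox clusters, whose late members mark the tail end of the body. In both regions stem cells at the crypt base give rise to dividing progenitors, absorptive colonocytes and mucus-making goblet cells, with few tuft and enteroendocrine cells.

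The 4 Colon GF samples held 674 to 1425 cells and 8544196 to 26697212 transcripts each, and the 4 Cecum GF samples held 267 to 619 cells and 6702465 to 14157157 transcripts each. No barcode and no first-round well was shared between germ-free samples, while 219 barcode strings of germ-free cells recurred across the 8 sublibraries, in which each loaded sample was spread. The epithelial marker Epcam stood at 912 to 1323 CPM (a gene's transcripts scaled to the sample's total) in Colon GF and at 953 to 1633 CPM in Cecum GF. Summed stroma markers reached 8.09 CPM in Colon GF and 7.70 CPM in Cecum GF. The 25 immune markers summed to 100.2 to 183 CPM in Colon GF and to 58.8 to 410 CPM in Cecum GF, with Cecum GF 2 the highest. The median share of mitochondrial transcripts per cell was 0.226% to 0.285% in Colon GF samples and 0.229% to 0.663% in Cecum GF samples. Samples numbered 1 and 2 were rich in Xist and samples 3 and 4 in Y-linked transcripts in both regions. That split by sex was the same on either side of the contrast.

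Cells were assigned to classes by the summed share of fixed markers. Mature absorptive cells (Krt20, Slc26a3 and 6 other markers) made up 3.55% to 6.72% of Colon GF cells and 18.4% to 45.9% of Cecum GF cells, and the 2 ranges did not overlap. Their mean share was 4.70% ± 1.42 in Colon GF and 28.3% ± 12.2 in Cecum GF (SD, n = 4 each). Tuft cells were 2.70% ± 0.327 of Colon GF cells and 0.898% ± 0.316 of Cecum GF cells. Stem cells (Lgr5, Smoc2, Ascl2, Axin2, Rgmb and Cdca7) were 22.9% ± 4.90 in Colon GF and 15.2% ± 3.77 in Cecum GF, goblet cells 11.4% ± 3.41 in Colon GF and 8.83% ± 2.14 in Cecum GF, and dividing cells 13.4% ± 1.85 in Colon GF and 15.3% ± 3.23 in Cecum GF. Over the 8 shares compared, a two-sided exact permutation test gave its smallest possible p of 0.0286 for mature absorptive, tuft and intermediate cells, which became an adjusted p of 0.0762, so that no share passed 0.05. The 1:1 sort on CD44 partly sets these shares, and they are not shares of the tissue. The mature absorptive class is a range of a score and not a separate type. In it or just below, 223 Colon GF and 191 Cecum GF cells lay within 10 marker transcripts per 10000 of the limit of 40. The median score of the class was 58.0 in Colon GF and 80.8 in Cecum GF. The score was also higher in Cecum GF outside the class. In stem cells its median was 11.4 in Colon GF and 13.6 in Cecum GF. In intermediate cells it was 14.1 in Colon GF and 18.8 in Cecum GF. Goblet and dividing cells went the same way. The absorptive marker Cdhr2 was itself called lower in Colon GF goblet, stem and dividing cells. How far a common limit for both regions sets the share of this class was not tested.

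**Figure D1:**
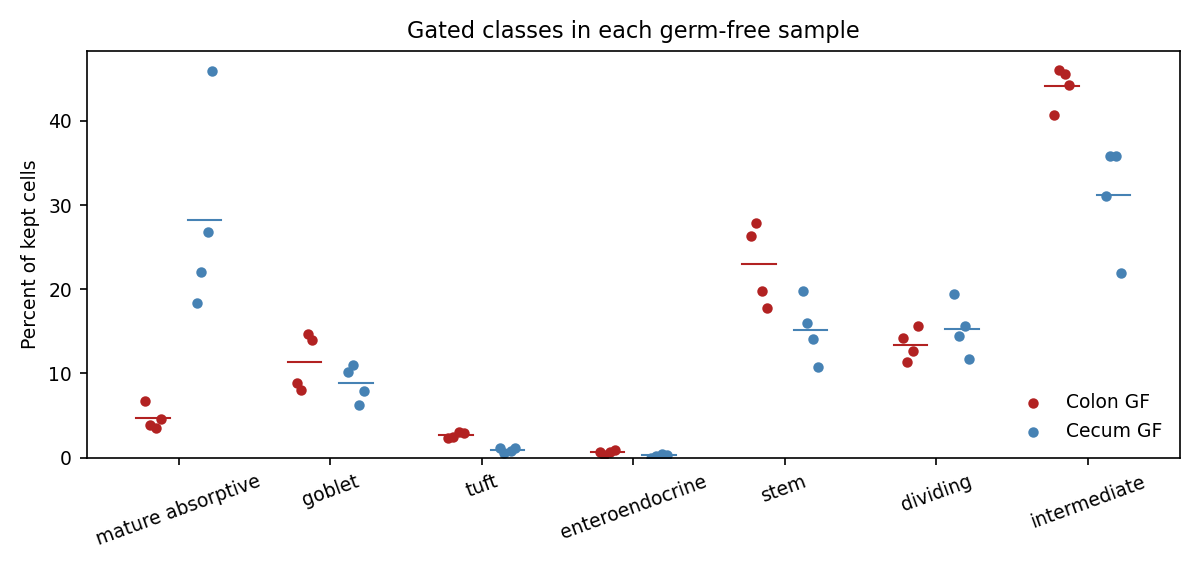
Share of kept cells (percent, y axis) in each gated class (x axis) for the 4 Colon GF and 4 Cecum GF samples, with points for samples and lines for means. Mature absorptive cells lie at 3.55% to 6.72% in Colon GF and at 18.4% to 45.9% in Cecum GF.

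With all cells summed per sample, 1882 of 13554 tested genes (13.9%) rose in Colon GF over Cecum GF and 1190 (8.78%) fell, together 22.7%, by edgeR's quasi-likelihood test at an adjusted p of 0.05. The median log2 fold change of all tested genes was 0.06. With TMM factors the split was 1670 higher and 1546 lower, and with DESeq2 1867 higher and 1883 lower. Since the mature absorptive share differs so widely, the same test was run without those cells: 1284 of 13400 genes rose (9.58%) and 978 fell (7.3%), together 16.9%, and 1923 of these calls were shared with the 3072 calls of all cells. Gene lists are counted below over the members that passed the filter on low counts, with the number listed where many did not. The lists were chosen with earlier results of these data known. Their counts and medians beside those of all tested genes are thus a description and not a test. In sums over all cells, fewer cells of a type and less RNA per cell cannot be told apart.

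The leading colon genes stood at a few CPM or less in the cecum. B3galt5, a galactosyltransferase that builds glycan chains, had 131, 91.8, 197 and 144 CPM in Colon GF, against 0.597, 0.793, 1.91 and 0.717 CPM in Cecum GF (log2 fold change 6.94 ± 0.35 (SE), adjusted p = 1.71e-07). Thbs4, a secreted thrombospondin of the matrix, had 92.4, 62.7, 86.2 and 82.9 CPM in Colon GF, against 0.298, 0.529, 0.848 and 1.15 CPM in Cecum GF (log2 fold change 6.78 ± 0.26 (SE), adjusted p = 2.89e-08). B3gnt7, an N-acetylglucosaminyltransferase, had 144, 132, 233 and 187 CPM in Colon GF, against 2.54, 1.98, 1.77 and 1.72 CPM in Cecum GF (log2 fold change 6.46 ± 0.24 (SE), adjusted p = 2.89e-08). In each of these genes every Colon GF sample exceeded every Cecum GF sample, which the rule that named them required. Mptx1, a mucosal pentraxin of goblet cells, reached 267 ± 117 CPM in Colon GF and 4.23 ± 2.58 CPM in Cecum GF (SD, n = 4 each here and in what follows). Nxpe2 had 127 ± 24.4 CPM in Colon GF and 1.30 ± 0.297 CPM in Cecum GF. The remaining leading colon genes were Gm16341 (log2 7.53), Sval1 (6.35), the transglutaminase Tgm3 (6.25), Fstl4 (5.83), the scaffold protein Dlg2 (5.83) and the Slit receptor Robo2 (5.50). Their largest adjusted p was 3.08e-06, that of Sval1. Without mature absorptive cells Tgm3 stood at log2 5.19.

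The leading cecum genes averaged 1.24 (Adamts18) to 238 CPM (Car1) in Colon GF. Slc37a2, a sugar-phosphate exchanger, had 18.5, 30.9, 30.3 and 21.9 CPM in Colon GF, against 911, 914, 492 and 925 CPM in Cecum GF (log2 fold change -4.99 ± 0.26 (SE), adjusted p = 2.03e-07). Cecum GF 3 was the lowest cecum sample for Slc37a2. The leading cecum genes were named by the same rule, which required no overlap of the groups. Car1, carbonic anhydrase 1, had 256, 255, 233 and 207 CPM in Colon GF, against 1382, 2285, 2731 and 6737 CPM in Cecum GF (log2 fold change -3.79 ± 0.41 (SE), adjusted p = 5.15e-05). Its highest sample was Cecum GF 4, which was the richest in mature absorptive cells. The sialyltransferase St3gal5, which makes the ganglioside GM3, averaged 15.4 ± 8.26 CPM in Colon GF and 237 ± 18.3 CPM in Cecum GF. The sulfotransferase Gal3st2c averaged 29.8 ± 4.53 CPM in Colon GF and 447 ± 104 CPM in Cecum GF. The log2 fold changes of the remaining leading cecum genes were -5.87 for the protease Adamts18, -4.69 for 9130221F21Rik, -4.34 for the galactosylceramide synthase Ugt8a, -4.25 for the apical sorting protein Mal, -4.24 for Tmigd1, -3.90 for the lipid transporter Abca12 and -3.69 for the carboxylesterase Ces2e. Without mature absorptive cells the log2 values stayed below 0: -4.99 for Slc37a2, -3.21 for Car1, -3.41 for Ugt8a, -3.22 for Mal, -3.10 for Tmigd1, -2.61 for Abca12 and -2.71 for Ces2e.

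**Figure D2:**
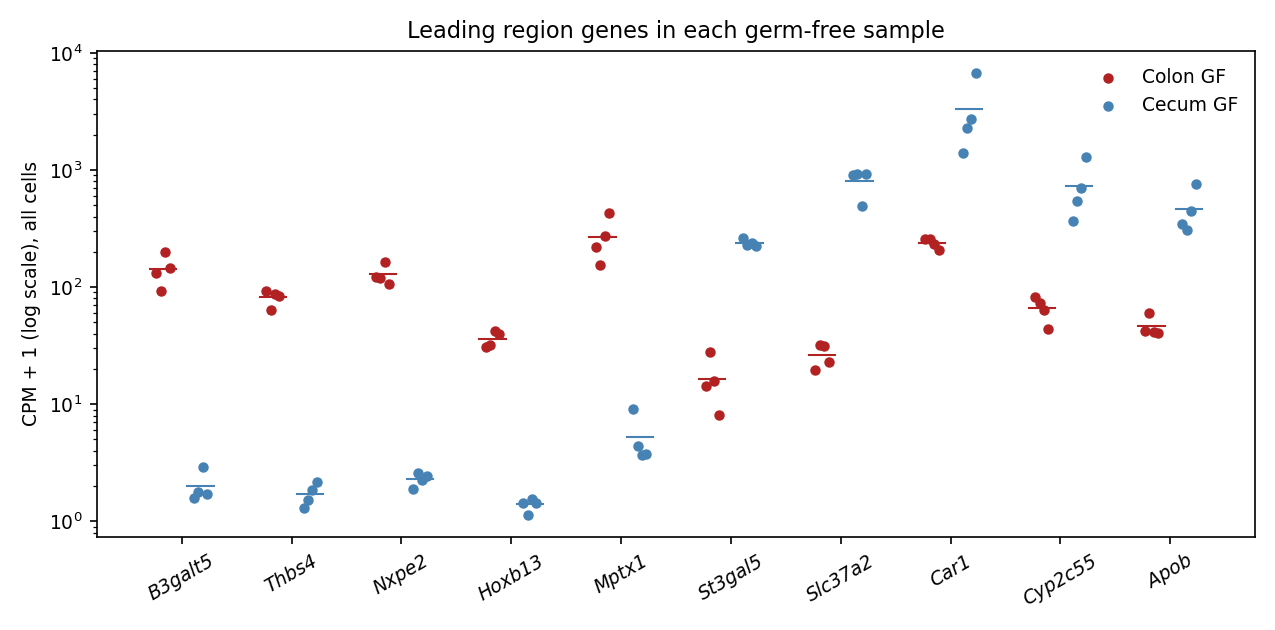
CPM + 1 on a log axis for 10 genes (x axis), all cells summed, with a point per sample and a line at the group mean. Hoxb13 lies at 29.7 to 41.5 CPM in Colon GF and at 0.132 to 0.565 CPM in Cecum GF, while Slc37a2 lies at 18.5 to 30.9 CPM in Colon GF and at 492 to 925 CPM in Cecum GF.

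The last Hox genes of 3 clusters were higher in the colon. Hoxb13, the last gene of cluster B, had 29.7, 31.3, 41.5 and 38.6 CPM in Colon GF, against 0.448, 0.132, 0.565 and 0.43 CPM in Cecum GF (log2 fold change 6.36 ± 0.27 (SE), adjusted p = 4.7e-08). Hoxd13 had 14.9, 14.3, 23.2 and 20.4 CPM in Colon GF, against 0, 0.265, 0.0706 and 0 CPM in Cecum GF, where the cecum value rests on 3 transcripts and the ratio was 197 (95% counting interval 67.3 to 957). Hoxd11 likewise had 2 cecum transcripts against 572 in Colon GF, a ratio of 137 (95% counting interval 37.7 to 1130.0). Hoxa13 averaged 12.4 ± 2.42 CPM in Colon GF and 1.18 ± 1.07 CPM in Cecum GF (log2 3.48, and 4.29 without mature absorptive cells). Of cluster D, 3 of 5 tested genes rose (Hoxd13, Hoxd11, Hoxd10) and none fell, with 9 listed, and no gene of cluster C passed the filter. Of cluster A, Hoxa13 and Hoxa11 rose while Hoxa9 (log2 fold change -0.55 ± 0.13 (SE), adjusted p = 0.00893) and Hoxa7 (log2 fold change -0.45 ± 0.14 (SE), adjusted p = 0.0386) fell, of 10 tested. Of cluster B, only Hoxb13 rose and Hoxb6, Hoxb4, Hoxb3 and Hoxb2 fell, of 9 tested. Without mature absorptive cells 1 of the 9 rose and 6 fell. The lower Hox genes with values given here moved by less than 1 on the log2 scale. Hoxb6 had 224 ± 24.1 CPM in Colon GF and 319 ± 39.4 CPM in Cecum GF (log2 -0.51). Hoxb3 had 42.7 ± 7.01 CPM in Colon GF and 67.2 ± 9.23 CPM in Cecum GF (log2 -0.65). Hoxb4 had 19.4 ± 4.10 CPM in Colon GF and 29.8 ± 5.65 CPM in Cecum GF (log2 -0.61, adjusted p = 0.03). Hoxa7 lost its call in 6 of 16 alternatives (adjusted p up to 0.116) and Hoxb4 in 3 of 16 (adjusted p up to 0.0937), leaving out single samples among them.

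Other regional transcription factors were 5 higher and 6 lower of 26 tested and 37 listed, with a median log2 fold change of 0.01. Nr5a2, a nuclear receptor known in crypts, had 409, 410.4, 381 and 411 CPM in Colon GF, against 133, 119.7, 129.5 and 132 CPM in Cecum GF (log2 fold change 1.65 ± 0.09 (SE), adjusted p = 4.2e-07). Osr2, a zinc finger factor, averaged 42.5 ± 4.15 CPM in Colon GF and 9.63 ± 3.61 CPM in Cecum GF (log2 2.15, adjusted p = 5.75e-05). Cdx2, the intestinal master factor, was modestly lower at 115 ± 22.6 CPM in Colon GF and 168 ± 13.2 CPM in Cecum GF (adjusted p = 0.0156, and 0.0553 without Colon GF 1). The T-box factor Tbx3 was lower at 24.6 ± 6.43 CPM in Colon GF and 45.2 ± 6.26 CPM in Cecum GF (log2 -0.86).

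Enzymes that build surface glycans changed widely: 19 of 35 tested (38 listed) rose in Colon GF and 6 fell, with a median log2 fold change of 0.55 beside 0.06 for all tested genes. Besides B3galt5 and B3gnt7, the sialyltransferase St3gal6 had 246, 189.5, 342 and 264 CPM in Colon GF, against 14.0, 5.95, 6.22 and 4.02 CPM in Cecum GF (log2 fold change 5.13 ± 0.33 (SE), adjusted p = 1.06e-06). B4galnt3 averaged 211 ± 35.9 CPM in Colon GF and 42.4 ± 5.95 CPM in Cecum GF (log2 2.32, and 3.06 without mature absorptive cells). The fucosyltransferases Fut2, Fut4 and Fut8 and the core enzymes C1galt1 and B3gnt6 were also higher. In the other direction B4galnt2, which makes the Sda blood group glycan in the mouse gut, had 414, 483, 363 and 394 CPM in Colon GF, against 996, 1157, 1070.0 and 1246 CPM in Cecum GF (log2 fold change -1.43 ± 0.12 (SE), adjusted p = 9.05e-06). The groups of St3gal6 and of B4galnt2 did not overlap. Without mature absorptive cells the counts were 18 higher and 6 lower. Of 5 mucins tested, Muc3a rose and Muc16, a large membrane mucin, fell with 3.93 ± 2.33 CPM in Colon GF and 51.4 ± 9.35 CPM in Cecum GF.

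Genes of drug and toxin handling were mostly lower in Colon GF. In this list 28 of 45 tested (52 listed) fell and 5 rose, median log2 -0.79, and without mature absorptive cells 25 of 44 fell and 5 rose. The cytochrome Cyp2c55 had 81.8, 71.8, 62.6 and 42.7 CPM in Colon GF, against 368, 545, 702 and 1281 CPM in Cecum GF (log2 fold change -3.48 ± 0.35 (SE), adjusted p = 2.99e-05; log2 -2.61 without mature absorptive cells). Cyp2c65 averaged 60.0 ± 16.9 CPM in Colon GF and 361 ± 69.4 CPM in Cecum GF (log2 -2.58). Adh1, an alcohol dehydrogenase, went the other way with 246, 263, 322 and 295 CPM in Colon GF, against 56.8, 42.5, 48.4 and 32.8 CPM in Cecum GF (log2 fold change 2.64 ± 0.17 (SE), adjusted p = 8.52e-07). Cyp2c55 was lower and Adh1 higher in every Colon GF sample than in any Cecum GF sample. Ces, Ugt1a and Cyp2c members have close copies that may share reads. How such reads were counted is not stated in the labels or files.

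Some genes known for absorption of lipid and bile acid fell as well. Apob, the core protein of lipoproteins, had 41.1, 59.4, 40.6 and 39.3 CPM in Colon GF, against 345, 307, 443 and 758 CPM in Cecum GF (log2 fold change -3.36 ± 0.28 (SE), adjusted p = 6.24e-06). Fabp2 averaged 74.1 ± 15.4 CPM in Colon GF and 248 ± 100.1 CPM in Cecum GF (log2 -1.74, and -1.04 without mature absorptive cells). Of 20 dietary lipid genes 7 fell and 2 rose (median log2 -0.15), of 9 bile acid genes 4 fell and none rose (median -0.71), and of 13 retinoid genes 5 fell and none rose (median -0.02). Of 29 carriers of organic cations, vitamins and metals 15 fell and 3 rose (median -0.79). Slc10a2, the apical bile acid transporter, had 11.9, 9.66, 11.1 and 3.98 CPM in Colon GF, against 77.6, 103, 95.7 and 172 CPM in Cecum GF (log2 fold change -3.58 ± 0.32 (SE), adjusted p = 1.23e-05). Aldh1a1, which makes retinoic acid, averaged 45.9 ± 15.3 CPM in Colon GF and 297 ± 114 CPM in Cecum GF (log2 -2.68, and -1.86 without mature absorptive cells). Brush border builders fell in 10 of 21 genes and none rose (median -0.41), against 4 lower and 1 higher without mature absorptive cells. Brush border hydrolases were 3 higher and 6 lower of 14. The peptidases Mep1a (log2 -2.29, adjusted p = 0.000264) and Enpep (log2 -3.60, adjusted p = 3.9e-05) fell. Without mature absorptive cells their log2 fold changes were -1.65 for Mep1a and -1.86 for Enpep. The neprilysin gene Mme rose to 17.1, 11.4, 12.9 and 9.25 CPM in Colon GF, against 0.149, 0.132, 0.0706 and 0.43 CPM in Cecum GF (log2 fold change 6.14 ± 0.40 (SE), adjusted p = 1.17e-06; log2 6.73 without mature absorptive cells). Oxidative phosphorylation subunits fell in 11 of 26 genes and none rose. Atp5a1, a subunit of ATP synthase, had 362 ± 23.5 CPM in Colon GF and 572 ± 79.9 CPM in Cecum GF (log2 -0.66). The list's median was -0.56, 10 of the 26 fell without mature absorptive cells, and DESeq2 called 19 lower. Fatty acid oxidation genes were 10 lower and 1 higher of 33 (median -0.33), 19 lower and 1 higher with DESeq2.

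Short-chain fatty acids are the main microbial fuel of colonocytes, and their genes split, 8 higher and 6 lower of 16 (median log2 0.22). Slc5a8, a sodium-coupled carrier of short-chain fatty acids and of nicotinic acid, had 274, 197, 221 and 239 CPM in Colon GF, against 87.9, 80.5, 87.7 and 126 CPM in Cecum GF (log2 fold change 1.28 ± 0.16 (SE), adjusted p = 0.000122). Acsm3, a mitochondrial acyl-CoA synthetase, averaged 183 ± 16.8 CPM in Colon GF and 31.9 ± 9.45 CPM in Cecum GF (log2 2.52). The proton-coupled carrier Slc16a1 was lower at 139 ± 11.3 CPM in Colon GF and 339.7 ± 38.4 CPM in Cecum GF (log2 -1.29). Of 23 tested genes of nicotinic acid and NAD (37 listed, median -0.01), 5 rose (Slc5a8, Cd38, Nt5e, Nmnat3, Nmrk1) and 1 fell, 6 calls in all, a share near the 22.7% called among all tested genes. The one that fell was Nmnat2, an NAD-synthesizing enzyme, with 2.36, 3.86, 1.73 and 2.93 CPM in Colon GF, against 18.1, 12, 17.2 and 18.4 CPM in Cecum GF (log2 fold change -2.57 ± 0.25 (SE), adjusted p = 2.28e-05). With DESeq2 this list read 4 higher and 6 lower. The NAD-consuming Cd38 averaged 196 ± 19.1 CPM in Colon GF and 146 ± 28.7 CPM in Cecum GF, with overlapping groups (log2 fold change 0.43 ± 0.14 (SE), adjusted p = 0.0472), and lost its call in 9 of 16 alternatives (adjusted p = 0.0692 with TMM factors).

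Ion and water genes changed in both directions. Aqp4, a water channel, had 211, 171, 182 and 172 CPM in Colon GF, against 44.5, 35.6, 32.5 and 21.7 CPM in Cecum GF (log2 fold change 2.46 ± 0.19 (SE), adjusted p = 3.43e-06). The chloride loader Slc12a2 averaged 2008 ± 148 CPM in Colon GF and 1062 ± 265 CPM in Cecum GF (log2 0.92). The potassium channel Kcnq1 had 1897 ± 361 CPM in Colon GF and 935 ± 339 CPM in Cecum GF (log2 1.02). The calcium-activated chloride channel Ano1 had 68.6 ± 14.1 CPM in Colon GF and 3.01 ± 0.689 CPM in Cecum GF (log2 4.52). Clca4a was lower with 42.0, 59.3, 51.7 and 11.6 CPM in Colon GF, against 301, 267, 423 and 309 CPM in Cecum GF (log2 fold change -2.97 ± 0.37 (SE), adjusted p = 0.00015). Of 7 carbonic anhydrases Car1, Car2, Car4 and Car12 fell and none rose. Sodium and potassium transport was 5 higher and 5 lower of 20, chloride and bicarbonate transport 4 higher and 5 lower of 14, and amino acid and sugar transport 9 higher and 2 lower of 25 (median log2 0.41).

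Among secretory and defence genes, Creb3l1, a transcription factor of the secretory pathway, averaged 285 ± 26.3 CPM in Colon GF and 71.7 ± 13.7 CPM in Cecum GF (log2 2.00). Of the same line, 7 of 18 Notch and secretory fate genes rose and none fell (3 rose without mature absorptive cells). Goblet cargo was 7 higher and 3 lower of 15 (median 0.08). Reg4, a secreted lectin, was lower with 64.8, 51.5, 69.5 and 87.9 CPM in Colon GF, against 339, 397, 265 and 206 CPM in Cecum GF (log2 fold change -2.15 ± 0.21 (SE), adjusted p = 2.57e-05). Antimicrobial genes were 5 higher and 7 lower of 19 (median -0.41). Duox2, an epithelial oxidase, averaged 52.3 ± 13.5 CPM in Colon GF and 4.24 ± 2.57 CPM in Cecum GF (log2 3.68). The lectin Reg3g had 7.83 ± 2.20 CPM in Colon GF and 0.899 ± 0.413 CPM in Cecum GF (log2 3.06). The gasdermins Gsdmc2 (log2 -1.80, adjusted p = 6e-06) and Gsdmc4 (log2 -1.70, adjusted p = 0.000314), which are close copies of each other, were lower. Wnt and stem cell genes were 13 higher and 3 lower of 24 (median 0.44), with Sox9 at 191 ± 13.9 CPM in Colon GF and 110.0 ± 9.29 CPM in Cecum GF (log2 0.80). Without mature absorptive cells that list stood at 4 higher and 2 lower. In the same fit 15 of 24 DNA replication and mitosis genes were lower, beside 7.3% of all tested genes. With all cells 4 were lower (8 with DESeq2). Leaving out that class removed a mean 28.3% of Cecum GF and 4.70% of Colon GF cells, so the weight of dividing cells changed too. Its part in these counts was not tested. Of 14 regeneration genes 9 rose and 2 fell (median 0.80, and 5 rose and 1 fell of 13 without mature absorptive cells). The one described here is Plet1, a surface protein of regenerating epithelium, with 25.4, 15.5, 51.8 and 48.0 CPM in Colon GF, against 0.448, 0.529, 1.77 and 0.43 CPM in Cecum GF (log2 fold change 5.21 ± 0.51 (SE), adjusted p = 2.4e-05). Genes induced by dissociation were 4 higher of 21 (2 with TMM factors), beside 13.9% of all tested genes, Nr4a1 among them at 50.4 ± 21.0 CPM in Colon GF and 14.5 ± 6.70 CPM in Cecum GF. The antibody gene Igha, called lower (log2 -5.16, adjusted p = 0.031), rests on 1 sample. It had 0.825, 1.01, 0.74 and 1.05 CPM in Colon GF, against 0.448, 129, 1.13 and 0.861 CPM in Cecum GF. Its log2 fold change was 0.07 without Cecum GF 2, which also had the highest immune marker sum.

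**Figure D3:**
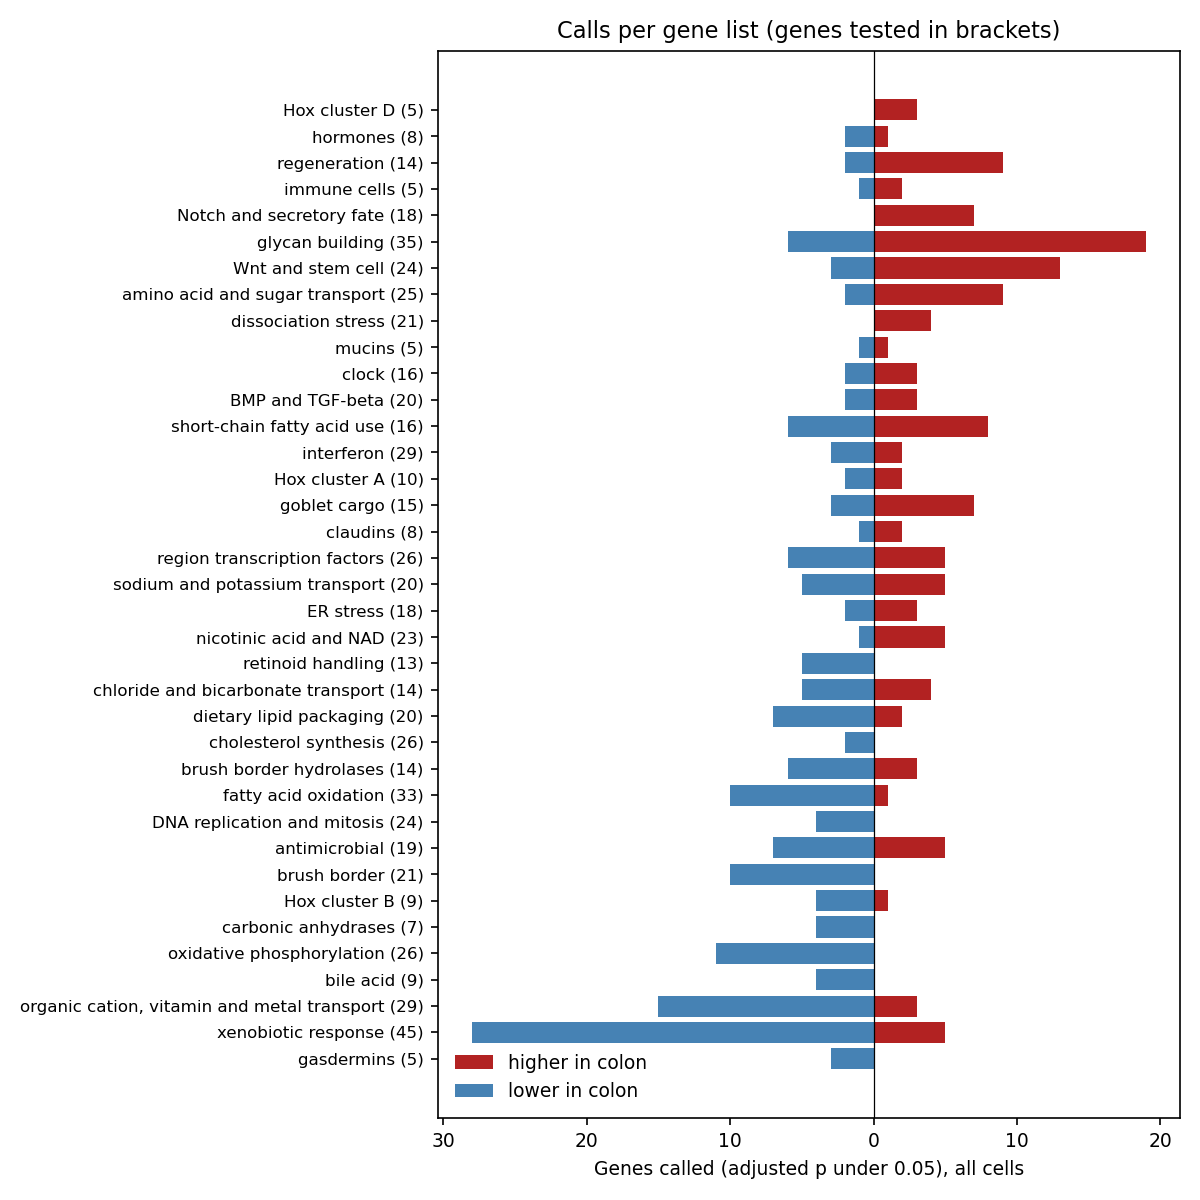
Number of genes called higher (right) and lower (left) in Colon GF than in Cecum GF, all cells, for each list with at least 5 tested genes and 1 call, ordered by median log2 fold change with the highest at the top. Glycan building shows 19 higher and 6 lower of 35, and xenobiotic response 5 higher and 28 lower of 45.

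Regional differences were next read within classes. Of 8331 genes tested in mature absorptive, goblet, stem and dividing cells, 116 rose in Colon GF in all 4 classes and 81 fell in all 4, while 1833 were called in at least 1 class and 16 were called in opposite directions by 2 classes. The classes come from the same 8 samples, so they are not independent repeats. Genes used to gate the cells are included in these counts. Among them are the goblet marker Agr2, higher in all 4, and the absorptive marker Cdhr2, lower in all 4. Thbs4 had log2 fold changes of 6.98 in mature absorptive and 6.92 in dividing cells. With 3 Cecum GF transcripts in goblet and 1 in stem cells, its ratio of colon to cecum was 110.0 (95% counting interval 37.3 to 532) in goblet and 179 (95% counting interval 32.0 to 7070.0) in stem cells. B3gnt7 had log2 fold changes of 6.29 in mature absorptive, 6.23 in goblet, 5.56 in stem and 5.87 in dividing cells. Muc16 had -3.93, -5.13, -3.70 and -4.12 in the same order of classes, and 9130221F21Rik had -3.96, -6.09, -4.91 and -4.71. The regional difference of these genes was thus called in mature absorptive, goblet, stem and dividing cells alike.

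**Figure D4:**
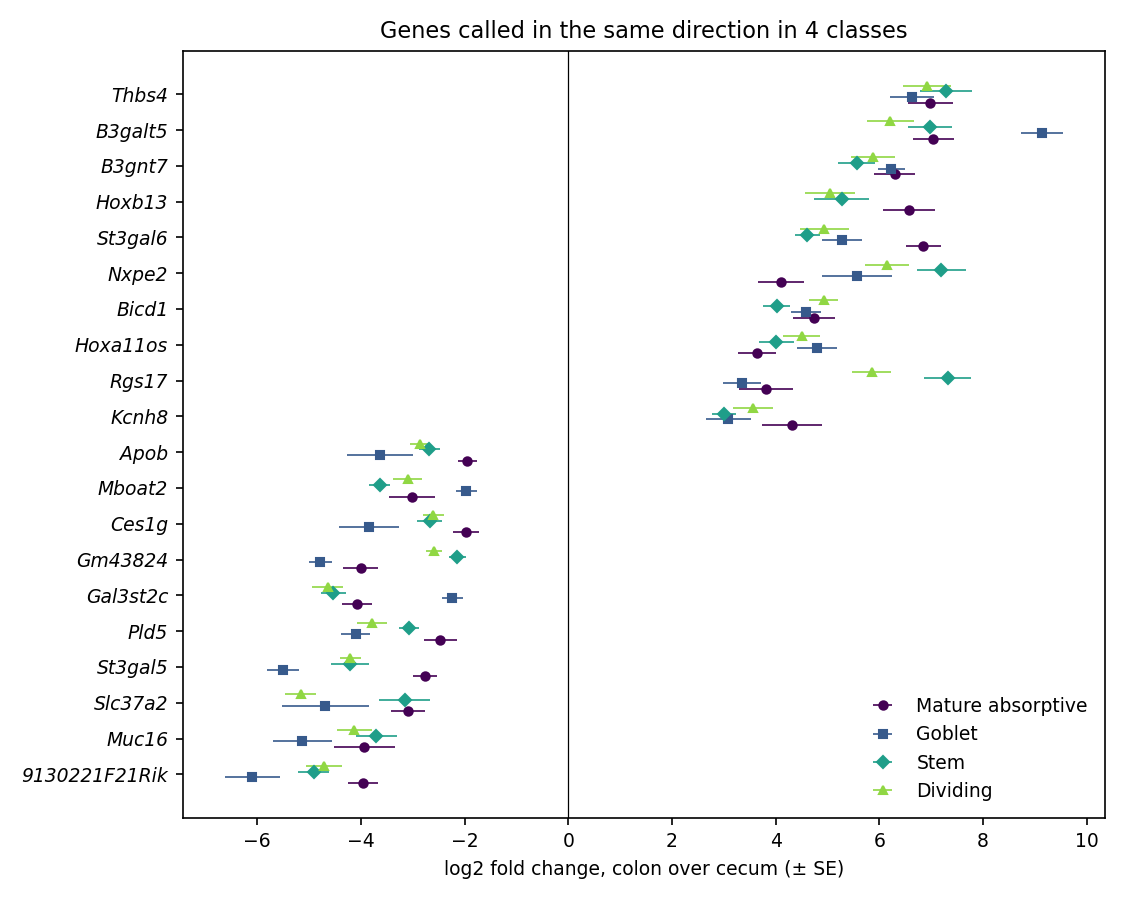
Fitted log2 fold change, Colon GF over Cecum GF, ± SE (x axis) in 4 classes for 10 genes of each direction, chosen among those reported by the size of their smallest change over the classes. B3gnt7 ranges from 5.56 to 6.29 and Muc16 from -5.13 to -3.70; no point is drawn for Hoxb13 in goblet cells, where Cecum GF had no transcript, and fitted values of genes with 1 to 3 transcripts in a group depend on the prior count.

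The start regions of genes called in all 4 classes are shown because these genes moved together whatever the class. Of the 197 such genes 165 matched a RefSeq promoter by symbol, and the pair in each direction with the greatest minimum change and a single listed start is printed, 250 bases before the start, 5′ to 3′ on the gene's strand. Coordinates are those of GRCm38.p6, which is not the GRCm39 build of the count table. Capitals mark any match, on either strand, to 1 of 3 strings. Caudal and posterior Hox factors are known to bind TTTATNG. The string AGATAAG is read by factors of the Gata family. The string CAAAGTCCA is known for the nuclear receptor HNF4. No matches overlap in the sequences printed.
Thbs4, chr13:92794819-92795068, minus strand: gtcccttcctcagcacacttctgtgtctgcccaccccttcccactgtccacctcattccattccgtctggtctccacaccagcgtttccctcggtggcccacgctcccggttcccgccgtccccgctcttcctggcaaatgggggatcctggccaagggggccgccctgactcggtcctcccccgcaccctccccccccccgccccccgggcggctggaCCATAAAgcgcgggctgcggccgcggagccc
B3gnt7, chr1:86302971-86303220, plus strand: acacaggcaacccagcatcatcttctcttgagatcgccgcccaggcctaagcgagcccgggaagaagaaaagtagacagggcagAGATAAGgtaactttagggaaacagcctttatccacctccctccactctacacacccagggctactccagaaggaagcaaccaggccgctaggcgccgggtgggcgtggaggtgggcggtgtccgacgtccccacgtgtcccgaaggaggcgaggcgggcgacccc
9130221F21Rik, chr6:72042529-72042778, minus strand: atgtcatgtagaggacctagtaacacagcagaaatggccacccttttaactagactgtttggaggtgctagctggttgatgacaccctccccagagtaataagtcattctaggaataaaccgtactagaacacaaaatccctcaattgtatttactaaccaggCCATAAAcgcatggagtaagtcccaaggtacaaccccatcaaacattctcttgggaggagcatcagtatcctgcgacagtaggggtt
Muc16, chr9:18674604-18674853, minus strand: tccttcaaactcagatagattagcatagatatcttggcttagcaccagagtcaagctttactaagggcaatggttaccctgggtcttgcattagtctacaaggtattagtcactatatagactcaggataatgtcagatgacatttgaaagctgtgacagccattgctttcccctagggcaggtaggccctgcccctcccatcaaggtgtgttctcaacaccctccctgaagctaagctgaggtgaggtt
Thbs4, higher in colon, and 9130221F21Rik, lower in colon, each held TTTATNG on the opposite strand, and B3gnt7 held AGATAAG on its own strand. Of 32851 promoters of the same length, 9.81% held TTTATNG, 2.74% AGATAAG and 0.384% CAAAGTCCA. Muc16 held none of these letters in this window. A match is a string of letters and not a measured site.

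In mature absorptive cells 871 of 8814 tested genes (9.88%) rose in Colon GF and 335 (3.8%) fell, and the median log2 fold change was 0.04. Tgm3, a protein cross-linking enzyme, led the class, with 487, 413, 549 and 407 CPM in Colon GF, against 0, 0.69, 0 and 1.31 CPM in Cecum GF (log2 fold change 9.53 ± 0.34 (SE), adjusted p = 1.07e-12). Aqp4 had 826, 460.0, 446 and 397 CPM in Colon GF, against 7.57, 1.38, 3.37 and 2.95 CPM in Cecum GF (log2 fold change 7.26 ± 0.33 (SE), adjusted p = 1.45e-11). Ano1 had 331, 306, 617 and 425 CPM in Colon GF, against 1.89, 2.76, 3.09 and 2.95 CPM in Cecum GF (log2 fold change 7.16 ± 0.29 (SE), adjusted p = 3.1e-12). These 3 genes were high in each Colon GF sample and at or below 7.57 CPM in each Cecum GF sample. The rule that named them required no overlap of the groups. The proton pump Atp12a had 48.2, 169, 193 and 334 CPM in Colon GF, against 0.946, 0.69, 0 and 0 CPM in Cecum GF, with 2 cecum transcripts and a ratio of 561 (95% counting interval 154 to 4640.0). The annexin Anxa3 averaged 101 ± 24.3 CPM in Colon GF and 0.406 ± 0.328 CPM in Cecum GF (log2 7.55). Lower were 9130221F21Rik, Muc16, Gal3st2c (log2 -4.07), Gm43824 (-4.0) and the complement regulator Susd4, with 2.74, 3.14, 2.20 and 0 CPM in Colon GF, against 29.3, 46.9, 54.5 and 68.8 CPM in Cecum GF (log2 fold change -4.29 ± 0.42 (SE), adjusted p = 5.65e-07).

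Transport genes of mature absorptive cells rose in part. Of 15 tested sodium and potassium transport genes 8 rose and none fell (median log2 0.54), and of 19 amino acid and sugar transporters 10 rose and none fell (median 0.67). The glutamate carrier Slc1a1 averaged 75.0 ± 29.8 CPM in Colon GF and 3.44 ± 2.82 CPM in Cecum GF (log2 4.74). The peptide carrier Slc15a1 had 138 ± 78.5 CPM in Colon GF and 2.83 ± 2.92 CPM in Cecum GF (log2 5.73). The amino acid carrier Slc7a8 had 18.8 ± 5.83 CPM in Colon GF and 2.03 ± 0.877 CPM in Cecum GF (log2 3.37). Scnn1a, a subunit of the epithelial sodium channel, had 71.3, 72.1, 79.1 and 63.2 CPM in Colon GF, against 25.6, 17.9, 29.8 and 23.6 CPM in Cecum GF (log2 fold change 1.55 ± 0.21 (SE), adjusted p = 3.46e-05). The sodium-proton exchanger Slc9a3 averaged 458 ± 209 CPM in Colon GF and 196 ± 16.5 CPM in Cecum GF (log2 1.21). Kcnq1 had 469 ± 150.3 CPM in Colon GF and 154 ± 74.1 CPM in Cecum GF (log2 1.65). Slc12a2, whose groups overlapped, had 315 ± 109.6 CPM in Colon GF and 125 ± 54.3 CPM in Cecum GF (log2 1.39). Slc5a8 averaged 307 ± 35.4 CPM in Colon GF and 128 ± 19.7 CPM in Cecum GF (log2 1.27). Oxct1, a ketone-using enzyme, had 290.2 ± 81.0 CPM in Colon GF and 96.5 ± 21.2 CPM in Cecum GF (log2 1.58). Acsm3 had 77.7 ± 30.9 CPM in Colon GF and 6.55 ± 5.74 CPM in Cecum GF (log2 3.81). Cd38 reached 306, 272, 279 and 372 CPM in Colon GF, against 168, 130.4, 137 and 191 CPM in Cecum GF in this class (log2 fold change 0.96 ± 0.16 (SE), adjusted p = 0.000328), without overlap. Short-chain fatty acid genes were 4 higher and 2 lower of 12 here, and 4 higher and 5 lower with TMM factors or DESeq2.

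Some cecum genes of the all-cell sums stayed lower within the class. Cyp2c55 had 595, 717, 617 and 453 CPM in Colon GF, against 1721, 1906, 2224 and 2322 CPM in Cecum GF (log2 fold change -1.77 ± 0.17 (SE), adjusted p = 4.6e-07). Apob had 259.5 ± 56.5 CPM in Colon GF and 1002 ± 173 CPM in Cecum GF (log2 -1.95) and Slc10a2 had 149 ± 79.2 CPM in Colon GF and 394 ± 81.0 CPM in Cecum GF (log2 -1.36). Xenobiotic genes were 2 higher and 14 lower of 40, median log2 -0.49. Brush border builders were 1 higher and 3 lower of 19, with a median of 0.05. B3galt5 had 172 ± 63.1 CPM in Colon GF and 0.91 ± 0.816 CPM in Cecum GF. Hoxb13 had 52.1 ± 17.4 CPM in Colon GF and 0.447 ± 0.518 CPM in Cecum GF. These stood in the same direction as over all cells. Among 7 tested regeneration genes (20 listed) 5 rose, Clu among them at 23.4 ± 10.1 CPM in Colon GF and 1.06 ± 0.615 CPM in Cecum GF. Genes induced by dissociation rose in 13 of 17 with none lower, median log2 1.15. Examples are Fosb (log2 fold change 2.57 ± 0.33 (SE), adjusted p = 1.56e-05), Jun (log2 1.11) and Nr4a1 (log2 2.87). Their part in the other changes of this class was not tested. The class of Colon GF 4 held 31 cells of a median 3174 transcripts, and without Colon GF 4 the calls in this class numbered 1398.

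In goblet cells 507 of 9940 genes (5.1%) rose and 589 (5.93%) fell. The matricellular gene Ccn3 had 1065 transcripts in Colon GF and none in Cecum GF, at least 177-fold higher against a limit of 3 transcripts over all Cecum GF goblet cells. Hoxb13, also with none in Cecum GF, was at least 68.3-fold higher. Hoxd13 was at least 25.6-fold higher by the same limit. Plet1 had 184, 121, 229 and 260.0 CPM in Colon GF, against 0, 0, 0.828 and 0 CPM in Cecum GF, a ratio of 941 (95% counting interval 169 to 37200.0). B3galt5 had 389, 239.6, 456 and 422 CPM in Colon GF, against 1.26, 0, 0.828 and 0.732 CPM in Cecum GF, a ratio of 613 (95% counting interval 209 to 2970.0). Dlg2 averaged 412 ± 68.0 CPM in Colon GF and 2.62 ± 3.91 CPM in Cecum GF (log2 7.25). Goblet cargo was 5 higher and 3 lower of 15 (median 0.57). Mptx1 had 1797, 1337, 1239 and 2321 CPM in Colon GF, against 61.6, 11.2, 12.4 and 8.05 CPM in Cecum GF (log2 fold change 6.32 ± 0.56 (SE), adjusted p = 3.39e-05). Sval1 averaged 179.9 ± 44.9 CPM in Colon GF and 1.75 ± 3.04 CPM in Cecum GF (log2 7.11). In the other direction Reg4 had 456, 371, 290.3 and 457 CPM in Colon GF, against 2791, 1801, 2952 and 1011 CPM in Cecum GF (log2 fold change -2.44 ± 0.31 (SE), adjusted p = 0.000461). Retnlb, an antimicrobial resistin-like protein, averaged 20.7 ± 12.1 CPM in Colon GF and 98.5 ± 52.0 CPM in Cecum GF (log2 -2.21). The groups of Mptx1 and of Reg4 did not overlap.

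Glycan enzymes of goblet cells were 14 higher and 4 lower of 30, median log2 1.05 beside -0.07 for all tested genes, with B3gnt7 at 186 ± 32.3 CPM in Colon GF and 2.29 ± 0.719 CPM in Cecum GF. St3gal5 (log2 fold change -5.50 ± 0.31 (SE), adjusted p = 1.34e-06), Muc16 (log2 -5.13) and 9130221F21Rik (-6.09) were lower, as was Fer1l6 (-1.12). The adhesion gene Cntn3 had 3 transcripts in Colon GF and 121 in Cecum GF, a ratio of 80.9 (95% counting interval 27.0 to 398) in favour of Cecum GF. Xenobiotic genes fell in 19 of 36 and rose in 3 (median -1.64). Oxidative phosphorylation subunits fell in 14 of 26 and none rose (median -0.84), Atp5a1 at 303 ± 25.7 CPM in Colon GF and 539 ± 105 CPM in Cecum GF. Genes of absorptive cells moved along with these. Car1 had 43.4, 159.6, 143 and 107 CPM in Colon GF, against 61.6, 2519, 2431 and 6476 CPM in Cecum GF (log2 fold change -4.66 ± 0.94 (SE), adjusted p = 0.00839, and 0.0615 with limma-voom). Cyp2c55 had 27.9, 17.1, 15.5 and 14.6 CPM in Colon GF, against 47.8, 462, 309.7 and 1113 CPM in Cecum GF. Cecum GF 1 stood low for both, close to Colon GF, and Car1 was highest in Cecum GF 4, the sample richest in mature absorptive cells. Without Cecum GF 1 there were 2011 calls in goblet cells, against 691 without Cecum GF 2 and 725 each without Colon GF 1 or Colon GF 3. Cells over 60000 transcripts were 18 of 440 goblet cells in Colon GF and 12 of 138 in Cecum GF. Without such cells 816 genes were called, of which 621 were among the 1096 reported. Of the goblet cells, 43 of 440 in Colon GF and 29 of 138 in Cecum GF also passed the absorptive gate. The median absorptive marker score of goblet cells was 14.7 in Colon GF and 22.4 per 10000 in Cecum GF. Doublets were not removed, and their part in these values was not tested.

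In stem cells 489 of 9964 genes (4.91%) rose and 391 (3.92%) fell, with a median log2 fold change of -0.03. Rgs17, a G protein regulator, had 136, 108, 163 and 219.7 CPM in Colon GF, against 1.59, 0, 0 and 3.71 CPM in Cecum GF (log2 fold change 7.32 ± 0.45 (SE), adjusted p = 1.46e-08). Nxpe2 averaged 139.9 ± 54.4 CPM in Colon GF and 0.723 ± 0.878 CPM in Cecum GF (log2 7.19). Thbs4, B3galt5 and Dlg2 had 1, 2 and 3 transcripts in all Cecum GF stem cells. Cd177, a surface glycoprotein, averaged 122 ± 21.0 CPM in Colon GF and 11.6 ± 5.38 CPM in Cecum GF (log2 3.26). Mme had 21.5 ± 3.35 CPM in Colon GF and 0.464 ± 0.928 CPM in Cecum GF. Car4, carbonic anhydrase 4, was lower with 4.54, 8.72, 1.30 and 1.43 CPM in Colon GF, against 109.7, 139, 102 and 113 CPM in Cecum GF (log2 fold change -4.48 ± 0.32 (SE), adjusted p = 4.7e-08). Cyp2c65 had 31.4, 28.5, 32.4 and 4.29 CPM in Colon GF, against 200.3, 282, 288 and 291 CPM in Cecum GF (log2 fold change -3.33 ± 0.28 (SE), adjusted p = 3.9e-07). This enzyme thus already differed in cells of the stem gate, without overlap of the groups. Position in the crypt was not measured. Among stem and intermediate cells, 644 in Colon GF and 163 in Cecum GF lay within 5 marker transcripts per 10000 of the limit of 15. Gal3st2c (log2 -4.53), St3gal5 (-4.21), Muc16 (-3.70) and 9130221F21Rik (-4.91) fell. Hox genes split here too. Hoxd13 was at least 18.7-fold higher against no transcript in Cecum GF. Hoxb13 had 343 transcripts in Colon GF and 2 in Cecum GF. Hoxb6 averaged 286 ± 30.9 CPM in Colon GF and 446 ± 29.7 CPM in Cecum GF (log2 -0.64). The call of Hoxb6 was lost with a stricter stem gate (log2 -0.50, adjusted p = 0.153). Xenobiotic genes were 1 higher and 15 lower of 35 (median -0.62), and glycan enzymes 12 higher and 4 lower of 27 (median 0.36). Slc5a8 averaged 189 ± 24 CPM in Colon GF and 56.5 ± 26.4 CPM in Cecum GF (log2 1.81). Car1, at log2 -3.79 over all cells, was 40.1 ± 10.6 CPM in Colon GF and 81.4 ± 20.6 CPM in Cecum GF here (log2 -1.05). It lost its call with a stricter stem gate (adjusted p = 0.876), under which the stem calls numbered 311.

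In dividing cells 542 of 10327 genes (5.25%) rose and 364 (3.52%) fell, together 8.77%, and with the sample number as a block 748 rose and 595 fell. Fstl4 had 252, 216, 103 and 105 CPM in Colon GF, against 0.629, 3.02, 2.02 and 1.93 CPM in Cecum GF (log2 fold change 6.46 ± 0.43 (SE), adjusted p = 1.69e-07). Gm16341 had 334 transcripts in Colon GF and 1 in Cecum GF, a ratio of 229 (95% counting interval 40.7 to 9050.0). Vtcn1, a checkpoint ligand, had 260 in Colon GF and 1 in Cecum GF, a ratio of 178 (95% counting interval 31.6 to 7050.0). Thbs4 averaged 70.8 ± 21.1 CPM in Colon GF and 0.288 ± 0.576 CPM in Cecum GF. B3galt5 averaged 74.5 ± 33.7 CPM in Colon GF and 0.908 ± 0.661 CPM in Cecum GF. Slc37a2 was lower with 9.49, 16.4, 22.6 and 4.86 CPM in Colon GF, against 681, 385, 407 and 412 CPM in Cecum GF (log2 fold change -5.16 ± 0.30 (SE), adjusted p = 5.54e-08). St3gal5 (log2 -4.20), Gal3st2c (-4.64) and 9130221F21Rik (-4.71) were lower too. Cyp2c65 was lower at 67.2 ± 31.9 CPM in Colon GF and 336 ± 50.8 CPM in Cecum GF. Hoxb13 averaged 29.1 ± 12.6 CPM in Colon GF and 0.773 ± 0.541 CPM in Cecum GF. Hoxd13 was at least 39.2-fold higher, and Cd177 (log2 2.80) and Slc5a8 (log2 1.48) rose. Xenobiotic genes were 2 higher and 18 lower of 38 (median -0.71), and glycan enzymes 11 higher and 4 lower of 26 (median 0.34). None of 24 tested DNA replication and mitosis genes outside the gate was called in this class by edgeR, and DESeq2 called 1 lower. A stricter gate left 504 calls.

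Tuft and enteroendocrine cells of Cecum GF numbered 14 and 5, too few for a test, so their summed transcripts are given with exact Poisson intervals that cover counting error only. In tuft cells B3galt5 had 87 transcripts, 83.9 CPM (67.2 to 103), in Colon GF and none of 222438 in Cecum GF, where the interval reaches 16.6 CPM. St3gal5 had 4 transcripts, 3.86 CPM (1.05 to 9.88), in Colon GF tuft cells and 13, 58.4 CPM (31.1 to 99.9), in Cecum GF tuft cells. In enteroendocrine cells St3gal5 stood at 4.38 CPM (0.531 to 15.8) in Colon GF and at 51.9 CPM (20.9 to 107) in Cecum GF. With 1 sum per region these values have no replicate check.

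Whether the regional difference itself differed between classes was tested as an interaction of region and class. Mature absorptive cells were set against crypt cells (stem and dividing together) in the same 8 samples. The crypt class held 1026 stem and 555 dividing cells in Colon GF, and 242 stem and 248 dividing cells in Cecum GF. The part of this unlike mix in the crypt and interaction calls was not tested. The region effect differed for 743 of 11609 genes (6.4%), more positive in mature cells for 603 and more negative for 140. Of 8674 genes tested in both, 1149 were called between regions in mature cells and 1204 in crypt cells, where 14.7% of all 11550 tested genes were called. Calls in both numbered 538, which is 46.82% of the mature and 44.68% of the crypt calls, and 527 of them had the same direction.

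The regional difference of Car4 changed sign. In mature cells it had 162, 274, 334 and 298 CPM in Colon GF, against 105, 90.4, 46.4 and 40.9 CPM in Cecum GF. In crypt cells it had 4.34, 8.37, 1.25 and 1.64 CPM in Colon GF, against 78.7, 113, 72.8 and 69.3 CPM in Cecum GF. The difference of the 2 log2 fold changes was 6.08 ± 0.38 (SE), adjusted p = 2.74e-09. Scnn1a, chosen after its values were seen, did the same, with 7.86, 6.67, 7.0 and 3.94 CPM in Colon GF crypt cells, against 19.3, 16.6, 17.9 and 24.2 CPM in Cecum GF crypt cells (difference 3.07 ± 0.27 (SE), adjusted p = 7.74e-07). Both genes were thus higher in mature and lower in crypt cells of the colon, without overlap in either class. Aqp4 had 149.9, 173, 147 and 158 CPM in Colon GF crypt cells, against 73.4, 86.2, 66.0 and 62.9 CPM in Cecum GF crypt cells, a smaller gap than the one given above for mature cells (difference 6.06 ± 0.33 (SE), adjusted p = 8.17e-10). Tgm3 was at most 1.03 CPM in crypt cells of either region (9.17 ± 1.42 (SE), adjusted p = 0.000341). Map2 rested mainly on mature cells of Colon GF 3, at 4.93, 5.23, 125 and 21.1 CPM in Colon GF and 0, 1.38, 0.281 and 0.982 CPM in Cecum GF (6.12 ± 1.17 (SE), adjusted p = 0.00259).

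In the negative direction St3gal1, a sialyltransferase, had 68.5, 40.8, 37.4 and 56.2 CPM in Colon GF mature cells, against 149.5, 70.4, 109 and 88.4 CPM in Cecum GF mature cells. In crypt cells it had 16.5, 17.1, 11.8 and 9.53 CPM in Colon GF, against 2.81, 5.83, 2.13 and 1.27 CPM in Cecum GF (-3.35 ± 0.39 (SE), adjusted p = 1.5e-05). Clec2e, a C-type lectin, had 11, 28.2, 4.39 and 10.5 CPM in Colon GF mature cells, against 34.1, 42.8, 69.1 and 61.2 CPM in Cecum GF mature cells, and in crypt cells 12.4, 11.8, 4.0 and 10.5 CPM in Colon GF, against 3.16, 1.79, 2.33 and 5.09 CPM in Cecum GF, where Colon GF 3 lay within the range of Cecum GF (-3.73 ± 0.42 (SE), adjusted p = 1.01e-05). Ptprt, a receptor phosphatase, had 163, 162, 292 and 195 CPM in Colon GF crypt cells, against 2.46, 1.79, 2.33 and 2.54 CPM in Cecum GF crypt cells. It was also called higher in goblet cells of Colon GF (log2 5.72 ± 0.35 (SE)). It had 16.4, 9.41, 19.8 and 35.1 CPM in Colon GF mature cells, against 4.73, 1.38, 1.69 and 2.95 CPM in Cecum GF mature cells (-3.52 ± 0.53 (SE), adjusted p = 0.000253). The proteoglycan Prelp showed 37.8, 48.5, 42.8 and 22.0 CPM in Colon GF crypt cells, against 2.81, 1.35, 0.97 and 1.91 CPM in Cecum GF crypt cells. It was at most 4.39 CPM in mature cells (-3.70 ± 1.04 (SE), adjusted p = 0.0368). Its call was lost on leaving out any of 4 samples, with adjusted p up to 0.347. Calls in opposite directions also held for Vldlr, Nr3c2, Ddah1, Ccl28, Nckap5, Tmem45b and Zdhhc17, which with Car4, Scnn1a, St3gal1 and Clec2e make 11 genes.

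**Figure D5:**
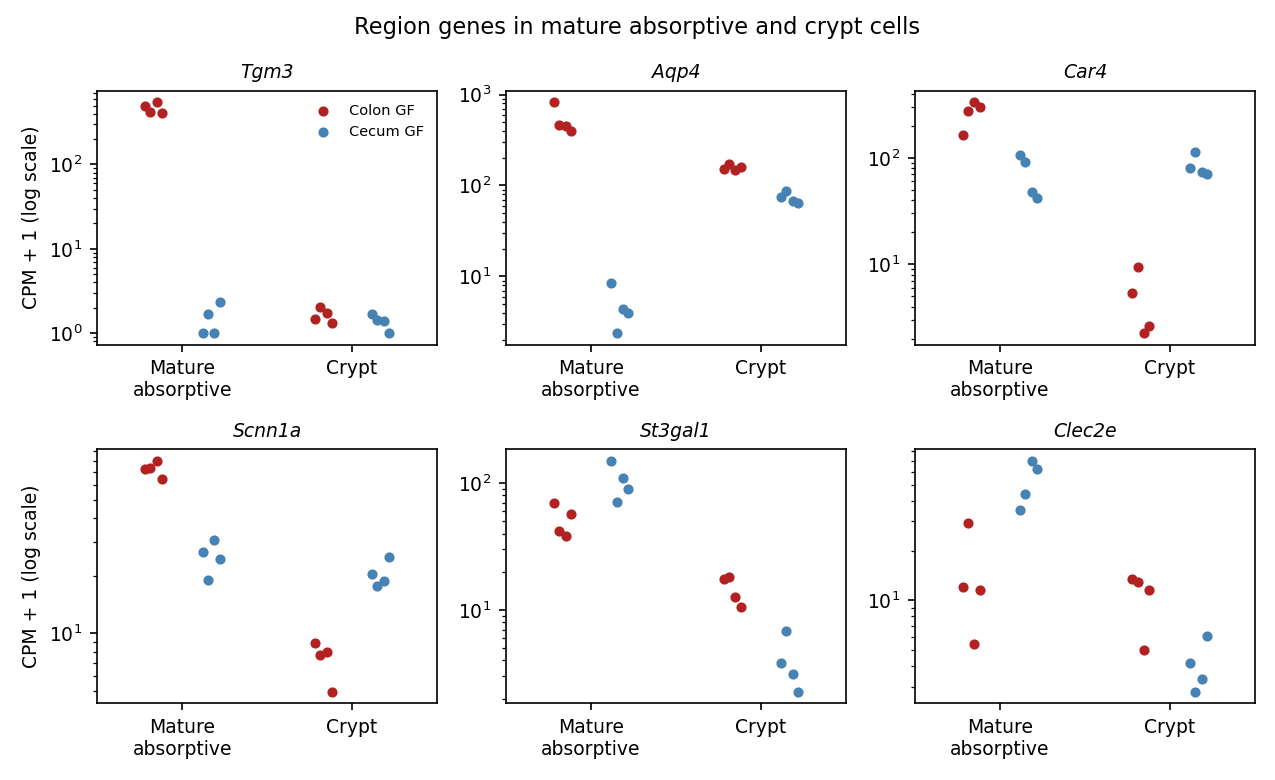
CPM + 1 on log axes in mature absorptive and crypt cells for 6 genes, with a point per sample of Colon GF and Cecum GF. Car4 and Scnn1a are higher in Colon GF among mature cells and lower in Colon GF among crypt cells, and St3gal1 and Clec2e show the reverse, with 1 Colon GF sample of Clec2e within the range of Cecum GF among crypt cells.

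Whether region differed otherwise without microbes than after antibiotics was tested against Abx_14D, antibiotic-treated mice sampled the same way (4 colon and 4 cecum samples, none shared with GF). Over all cells no gene of 13945 was called for the interaction (0.0%), by edgeR with library-size scaling and also with TMM factors, and 776 (5.56%) had an unadjusted p under 0.05. In mature absorptive cells 7 of 9236 genes were called (0.0758%), 669 (7.24%) at an unadjusted p under 0.05. Homer2, a synaptic-type scaffold protein, had 111, 97.2, 81.3 and 98.3 CPM in Colon GF, against 10.4, 7.59, 3.65 and 4.91 CPM in Cecum GF. It had 54.0, 61.4, 107 and 92.9 CPM in Colon Abx_14D, against 17.8, 15.8, 47.5 and 39.2 CPM in Cecum Abx_14D. The regional difference was larger in GF (2.81 ± 0.47 (SE), adjusted p = 0.0141). Slc2a13, a proton-coupled inositol carrier, had 313, 240.4, 290.0 and 246 CPM in Colon GF, against 226, 224, 222 and 230.2 CPM in Cecum GF. After antibiotics it had 446, 417, 393 and 332 CPM in Colon Abx_14D, against 158, 139, 128 and 152 CPM in Cecum Abx_14D. The gap was the wider one after antibiotics (-1.18 ± 0.19 (SE), adjusted p = 0.0141). Ntn4, a netrin, had 22.5, 17.8, 15.4 and 14.0 CPM in Colon GF, against 37.9, 44.2, 27.5 and 33.1 CPM in Cecum GF. It had 29.2, 15.0, 20.9 and 34.8 CPM in Colon Abx_14D, against 6.57, 12.6, 6.92 and 9.79 CPM in Cecum Abx_14D. The sign of its regional difference thus changed (-2.45 ± 0.40 (SE), adjusted p = 0.0141). The kinase Plk3 (2.33 ± 0.45 (SE), adjusted p = 0.0439), the cytochrome Cyp4f14 (1.52 ± 0.26 (SE), adjusted p = 0.0182) and the repressor Klf12 (-2.91 ± 0.57 (SE), adjusted p = 0.0461) were the other named calls. Leaving out single samples gave 2 to 16 calls. Of these 6 genes Slc2a13 alone kept its call in all 17 alternatives run, while Klf12 lost it in 13.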

How the data were processed

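Epithelial cells of 32 loaded samples were profiled in 8 sublibraries with a split-pool single-cell RNA kit (Parse Evercode WT), per the labels' protocols. The authors deposited raw transcript counts per gene and cell together with a table naming each cell's loaded sample, which gave the groups. Per the submitters' processing notes the build was mm39 and Seurat was used; the gene list carries the name GRCm39. For aligner and counter: not given in the sources used here. Nothing further was done to the deposited counts before they were summed.

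Cells with at least 500 transcripts were kept, doublets were left in, and counts were summed per loaded sample over all cells or within a class. A class was set by the summed marker transcripts per 10000, with limits of 40 for mature absorptive, 30 for goblet, 10 for enteroendocrine, 20 for tuft and 15 for stem cells, and 10 (S phase) or 15 (G2 and mitosis) for dividing cells. Cells passing 2 secretory gates were called multiple, and the rest intermediate. The limits and their precedence were set after the marker distributions and cell numbers in both regions had been seen, and a clustering that was looked at is not used. The members of the comparison and the gene lists were chosen with earlier results of these data known. Genes that define a class were left out of its named genes and list counts. They remain in the totals of called genes and in the counts over 4 classes.

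Samples with at least 20 cells of a class entered edgeR 4.0.16 (R 4.3.3): quasi-likelihood test, library-size scaling without TMM factors, filterByExpr, Benjamini-Hochberg adjustment, 0.05. Fold changes are Colon GF over Cecum GF, and SEs were taken from the log2 fold change and its F value. Interactions used the same tool. Scripts were tested on simulated data. Shares were compared by exact permutation in scipy 1.17.1. Genes named by rule had no overlap between groups and a mean of at least 20 CPM in the higher group, the 12 largest per direction over all cells and the 5 largest per class (4 per direction, without the overlap rule, for interactions). Some results that this rule selects are not reported here. Further genes are examples from the lists. Ratios on 1 to 3 transcripts carry 95% counting intervals, and "at least" values use a floor of 3 transcripts over the group; both cover counting error only.

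Alternatives were TMM factors, DESeq2 1.42.0, limma-voom (limma 3.58.1), no low-count filter, a sample-number block, stricter gates at 2 times the limit, at least 2000 transcripts per cell, and each sample left out. Leaving out cells over 60000 transcripts, and leaving out gated mature absorptive cells, were chosen after seeing the data. Same-numbered colon and cecum samples deviated together (correlation of deviations 0.33, 0.103, 0.121 and 0.25), so the numbers formed the sample-number block. The reported region tests and share tests left the samples unpaired. Colon GF 2 with Cecum GF 1 (0.272) and Colon GF 3 with Cecum GF 4 (0.151) exceeded the own pair of Colon GF 2 or 3. Without sex-linked genes the same-numbered values were 0.304, 0.0603, 0.0643 and 0.227.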

Additional observations from a re-analysis of the deposited data

Results flagged for a closer look

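Of 340 groups of 4 samples, 39 (11.5%) held 1 sample whose gap to the nearest other was large beside the range of the group. Chance gives about 1 in 20 if values are normally distributed, which was not tested for these measures. In 9 of the 39 a single sample held the gene or class and the other 3 were at 0, which meets the criterion whatever the value, so that figure does not apply to them.

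Over all cells, 2 colon groups were flagged. One Colon GF sample stood apart for Apob (59.4 CPM, others 39.3 to 41.1) and one for Nr5a2 (381 CPM, others 409 to 411). In Cecum GF the low sample had 260.0 CPM of Hoxb6 (others 332 to 345), 492 CPM of Slc37a2 (others 911 to 925) and 0.287 CPM of Reg3g (others 1.06 to 1.19). High Cecum GF samples had 126 CPM of Slc5a8 (others 80.5 to 87.9), 77.2 CPM of Enpep (others 31.8 to 34.5), 81.0 CPM of Hoxb3 (others 61.7 to 63.7) and 129 CPM of Igha (others 0.448 to 1.13). Colon genes with 1 high Cecum GF sample were Mptx1 (8.06 CPM, others 2.68 to 3.44), Duox2 (8.06 CPM, others 2.68 to 3.44), Fstl4 (3.87 CPM, others 1.34 to 1.64), B3galt5 (1.91 CPM, others 0.597 to 0.793), Plet1 (1.77 CPM, others 0.43 to 0.529) and Robo2 (0.597 CPM, others 0.397 to 0.43). In each of these genes except Igha the Colon GF and Cecum GF samples did not overlap. That was the usual state of a call: over all cells 2672 of 3072 called genes had no overlap. Slc37a2, Mptx1, Fstl4, B3galt5 and Robo2 were also named by a rule that required it.

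In mature absorptive cells 1 Colon GF sample was high for Oxct1 (411 CPM, others 236 to 261), Aqp4 (826 CPM, others 397 to 460.0) and Slc1a1 (120.0 CPM, others 56.2 to 62.7), and 1 Cecum GF sample for Nr4a1 (17 CPM, others 1.38 to 3.6) and Acsm3 (15.1 CPM, others 3.37 to 4.26). In goblet cells 1 Cecum GF sample was high for Mptx1 (61.6 CPM, others 8.05 to 12.4), Sval1 (6.28 CPM, others 0 to 0.732) and Plet1 (0.828 CPM, others 0). In stem cells 1 Colon GF sample had 4.29 CPM of Cyp2c65 (others 28.5 to 32.4), and 1 Cecum GF sample 200.0 CPM (others 282 to 291). Stem cells of 1 Cecum GF sample each held Thbs4 (0.795 CPM), Mme (1.85 CPM), Hoxb13 (1.19 CPM) and Dlg2 (1.78 CPM), while the other 3 had none. In dividing cells 1 Colon GF sample was high for B3galt5 (125 CPM, others 52.1 to 62.9) and Gm16341 (65.9 CPM, others 19.4 to 27.0). In the same class 1 Cecum GF sample was high for Slc37a2 (681 CPM, others 385 to 412), and 1 each held Thbs4 (1.15 CPM), Vtcn1 (0.754 CPM) and Gm16341 (0.629 CPM), with none in the other 3.

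Besides gene levels, 4 measures of cells and markers were flagged as well. One Cecum GF sample had 0.292% of cells passing more than 1 secretory gate, with none in the others. One Colon GF sample had a median mitochondrial share of 0.285% (others 0.226% to 0.235%). One Colon GF sample had 11.3 CPM of summed ileum and Paneth markers (others 13.4 to 13.8), and 1 Cecum GF sample had 410 CPM of summed immune markers (others 58.8 to 72.7).

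The effect of region differed between mature absorptive and crypt cells, by an interaction test, for Tgm3 (log2 difference 9.17), Map2 (6.12), Car4 (6.08), Aqp4 (6.06), Clec2e (-3.73), Prelp (-3.70), Ptprt (-3.52) and St3gal1 (-3.35). It differed between GF and Abx_14D in mature absorptive cells for Homer2 (log2 difference 2.81), Plk3 (2.33), Cyp4f14 (1.52), Klf12 (-2.91), Ntn4 (-2.45) and Slc2a13 (-1.18).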

How the results depend on the processing

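Total counts of called genes stayed within 1.5 times the reported ones under TMM factors, DESeq2, limma-voom, the sample-number block, at least 2000 transcripts per cell and the removal of cells over 60000 transcripts, except that TMM factors gave 4 calls for the region effect in GF against Abx_14D in mature absorptive cells. By direction, genes lower in Colon GF went past that for DESeq2 over all cells (1883, against 1190 reported) and for the block in dividing cells (595, against 364 reported). Similar totals can hold different genes. Without cells over 60000 transcripts, 621 of the 816 goblet calls were among the 1096 reported. The block ended 1 call of a named gene, Igha (log2 -3.44, adjusted p = 0.116); it gave 3454 calls over all cells and 1343 in dividing cells. Without the low-count filter there were 1833 calls in mature absorptive, 1793 in goblet, 1339 in stem and 1484 in dividing cells. Stricter gates left 311 calls in stem and 504 in dividing cells, with fewer cells and fewer genes tested; in mature absorptive cells this gate left too few samples with 20 cells and was not run. Leaving out 1 sample at a time gave 2244 to 4135 calls over all cells, 947 to 1429 in mature absorptive, 691 to 2011 in goblet, 604 to 992 in stem and 661 to 1134 in dividing cells, 416 (without Cecum GF 3) to 771 for region by class, and, for GF against Abx_14D, 0 to 1 over all cells and 2 to 16 in mature absorptive cells. Igha ranged from -5.57 to 0.068 on the log2 scale, the last without Cecum GF 2, and was the one named gene to change sign. Over the 171 named genes, counted once per comparison, leaving out a sample gave 1412 combinations of gene and sample, of which 1360 kept the call and 51 lost it; 11 genes were affected, Igha included. DESeq2 ended 1 call and gave no adjusted p for Igha. Calls that ended numbered 3 with TMM factors, 2 with limma-voom, 2 with the stricter gate, 1 without the low-count filter and 1 without mature absorptive cells. Depth limits the class values: the smallest classes held few cells per sample, and levels of about 1 CPM there rest on single transcripts.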
